A study of Mus musculus with 21 samples.

Results

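Expression of 10 genes of the mTOR complexes and their direct regulators was examined in mouse oocytes and granulosa cells, out of 55335 gene identifiers measured. The genes were taken by name: Mtor, Rptor, Rictor, Mlst8, Akt1s1, Deptor, Tsc1, Tsc2, Rheb and Rps6kb1. They were chosen by name with measured FPKM differences of these oocyte libraries known, and Rptor is on the study's own list of genes that differ between Aged and Young oocytes. Differences between oocyte groups are therefore given as a description, with no p-value. Where genes past a threshold are counted in oocytes, the count stands beside that of all genes and supports nothing.

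The study compared ovaries of Young mice, 6 to 8 weeks old, with ovaries of naturally Aged mice, 18 months old, all of the outbred ICR strain. Human umbilical cord mesenchymal stem cells were placed under the ovarian capsule of aged mice, either Unsorted or sorted for high or low surface LRP1, the low density lipoprotein receptor-related protein, and the animals were followed for 3 weeks after transplantation. These groups are named Aged + Unsorted, Aged + LRP1high and Aged + LRP1low. There were 3 Young, 2 Aged, 2 Aged + Unsorted, 3 Aged + LRP1high and 2 Aged + LRP1low oocyte libraries, and 1, 2, 1, 3 and 2 granulosa cell libraries of the same groups. The labels call the libraries biological replicates but do not tie them to animals or give the number of cells in each, so p-values measure the spread between these libraries.

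mTOR is a kinase that joins nutrient and growth factor signals to protein synthesis and autophagy. It works in mTORC1, where raptor (Rptor) brings in the substrates, and in mTORC2, where rictor (Rictor) takes that place. The GTPase Rheb switches mTORC1 on, and the TSC complex of Tsc1 and Tsc2 switches Rheb off. In the ovary this pathway is known for its part in the activation of primordial follicles and in oocyte growth.

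Expression was given as FPKM, fragments scaled to gene length and library size, so levels can be compared between genes only with a limit. Median FPKM was higher for protein-coding genes with 10 or more annotated transcripts than with 1 in 11 of 12 oocyte and 9 of 9 granulosa libraries. The part of this in the order of the 10 genes was not tested. The depth was 0.278 to 3.40 gigabases of aligned sequence in oocyte libraries and 0.335 to 1.49 gigabases in granulosa cell libraries, so a single read, of 150 bases, added 0.0441 to 0.540 FPKM to a gene 1 kilobase long in oocyte libraries. The median of 9 oocyte marker genes, such as Zp1 and Zp2 of the zona pellucida, was 65.2 to 774 FPKM in 8 of the 12 oocyte libraries. It was 0.805 FPKM in Young 1, 10.5 in Aged 1, and 4.76 and 8.32 in the 2 Aged + LRP1low libraries, so oocyte markers were low in these 4. Their sum was below that of 10 granulosa and cumulus markers in Young 1 (9.24 and 24.0 FPKM) and the first Aged + LRP1low library (45.7 and 48.4). It was above in Aged 1 (103 and 31.0) and the second Aged + LRP1low library (159 and 40.3). Vomeronasal and olfactory receptor genes, which are normally silent outside sensory neurons, reached 1 FPKM in 7.79%, 65.2%, 97.3% and 85.5% of 1463 genes in these 4 libraries, in 15.3% in Aged 2 and in at most 2.39% in the other 7 oocyte libraries. Both granulosa Aged libraries had a median housekeeping gene level of only 0.0293 and 0.193 FPKM. Their 10 highest genes held 93.7% and 95.5% of all TPM. FPKM is scaled to library size, so it gives neither the number of cells nor the RNA per cell. The cause of these low levels was not tested.

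The Rptor sequence that the study amplified by quantitative PCR is shown because raptor was the member with the widest separation between oocyte groups. The primers are given 5′ to 3′, and their sites are in capitals in the amplified sequence.
Rptor forward primer: tttgtctacgactgttccaatgc
Rptor reverse primer: gctacctctagttcctgctcc
Rptor amplified sequence: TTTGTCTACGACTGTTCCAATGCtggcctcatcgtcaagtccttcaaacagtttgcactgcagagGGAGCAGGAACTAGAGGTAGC
In the GRCm38 annotation (GENCODE M21), this stretch of 86 bases lies in the coding part of Rptor on the plus strand, with 81 bases in exon 5 (chr11:119743933-119744013) and 5 bases in exon 6 (chr11:119756239-119756243) of the transcript with 34 exons. Both primer sites are present in 6 of the 12 annotated Rptor transcripts and in 0 transcripts of other genes. The FPKM of Rptor adds up all its transcripts, so it covers more than this stretch. Values of that PCR were not analysed here.

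Levels in oocytes differed widely between the 10 genes. Rheb had the highest median over the 12 oocyte libraries, at 12.3 FPKM (range 0.643 to 86.5). Rictor followed at 9.67 FPKM, the mTOR inhibitor Deptor at 7.52 and the S6 kinase gene Rps6kb1, a substrate of mTORC1, at 6.94. The mTORC1 inhibitor Akt1s1 (4.33 FPKM), Mtor itself (4.28), Tsc2 (3.67) and Tsc1 (3.10) lay in the middle. Rptor had a median of 1.95 FPKM (range 0 to 14.6), and Mlst8, the small subunit shared by both complexes, was lowest at 0.577 FPKM. Neighbours in this order had overlapping ranges: Rheb was above Rictor in 10 of 12 libraries, Deptor above Rps6kb1 in 6, Tsc1 above Rptor in 6, and Rptor above Mlst8 in 7.

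**Figure D1:**
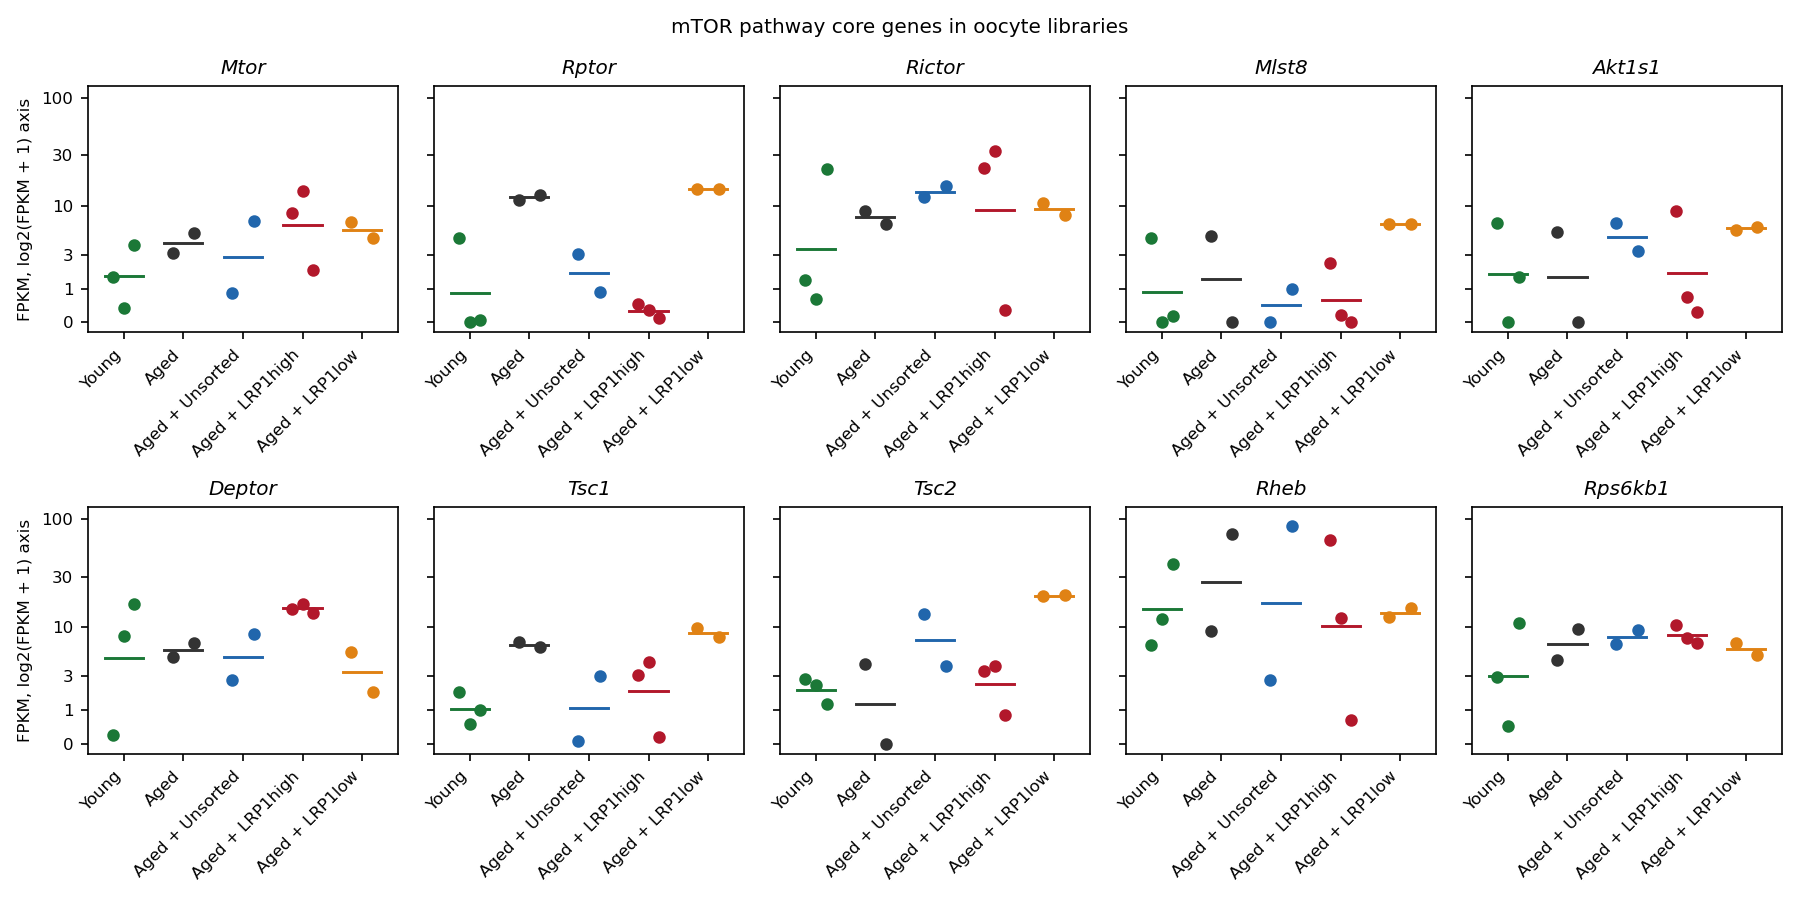
FPKM of the 10 genes in each of the 12 oocyte libraries by group, on a log2(FPKM + 1) axis. Points are libraries and lines are group means on that axis. For Rptor the 2 Aged and the 2 Aged + LRP1low libraries sit at 11.4 to 14.6 FPKM, and the other 8 at 4.66 FPKM or less.

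Over the 9 granulosa libraries the medians lay closer together. These libraries include the Aged ones with low housekeeping levels and an Aged + Unsorted library with an oocyte marker median of 580 FPKM. In the Young library the genes were not close, as Rheb, the highest, was 80.3-fold above Akt1s1, the lowest. Rheb was again highest by median, at 3.42 FPKM over 9 libraries (range 0.250 to 102), and Mlst8 again lowest at 0.395. The median of the 8 others was between 0.615 FPKM for Deptor and 1.48 for Tsc1. Rheb was above Tsc1 in 7 of 9 libraries, whereas Rptor was above Rictor, its neighbour in the order of medians, in only 2 of 9.

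Rptor showed the clearest pattern among the subunits in oocytes. It was at 4.66, 0 and 0.0499 FPKM in the 3 Young libraries and at 11.4 and 12.7 FPKM in the 2 Aged libraries. After transplantation it was at 3.03 and 0.867 FPKM in Aged + Unsorted, at 0.449, 0.279 and 0.0999 FPKM in Aged + LRP1high, and at 14.3 and 14.6 FPKM in Aged + LRP1low. Both Aged libraries were above all Young, Aged + Unsorted and Aged + LRP1high libraries, and below both Aged + LRP1low libraries.

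On the log2(FPKM + 1) scale, which understates changes of low genes, Rptor was higher in Aged than in Young by 2.85 (SE 0.80) and lower in Aged + LRP1high than in Aged, with a difference of -3.36 (SE 0.80). Against Aged it was lower by -2.25 (SE 0.88) in Aged + Unsorted and stood at 0.25 (SE 0.88) in Aged + LRP1low. The median of all genes tested moved by 0.94, -1.05, -0.86 and 0.68 in these 4 comparisons, so Rptor stood 1.90 above and -2.31, -1.39 and -0.43 below the median shift, respectively. A gene was called, after the study, where its fold change exceeded 1.5 with an adjusted p below 0.05.

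Rptor levels also moved with the marker content of the libraries. Of the 5 libraries in which Rptor was above Rictor, 4 were those with low oocyte markers, and the fifth was Aged 2. Among the 8 libraries with an oocyte marker median of 65.2 FPKM or more, Rptor was at 12.7 FPKM in Aged 2 and between 0 and 3.03 in the other 7, a 4.20-fold gap to the next. Of all genes tested, 8.37% had a gap at least as large in favour of Aged 2 among these libraries. Within these 8 libraries, with Aged as 1 library, the log2 difference was 3.74 (SE 0.61) for Aged against Young and -3.44 (SE 0.58) for Aged + LRP1high against Aged in a fit that was added after the data were seen and assumes that the lone Aged library varies like the other groups. The part of receptor gene signal in the Rptor level was not tested.

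**Figure D2:**
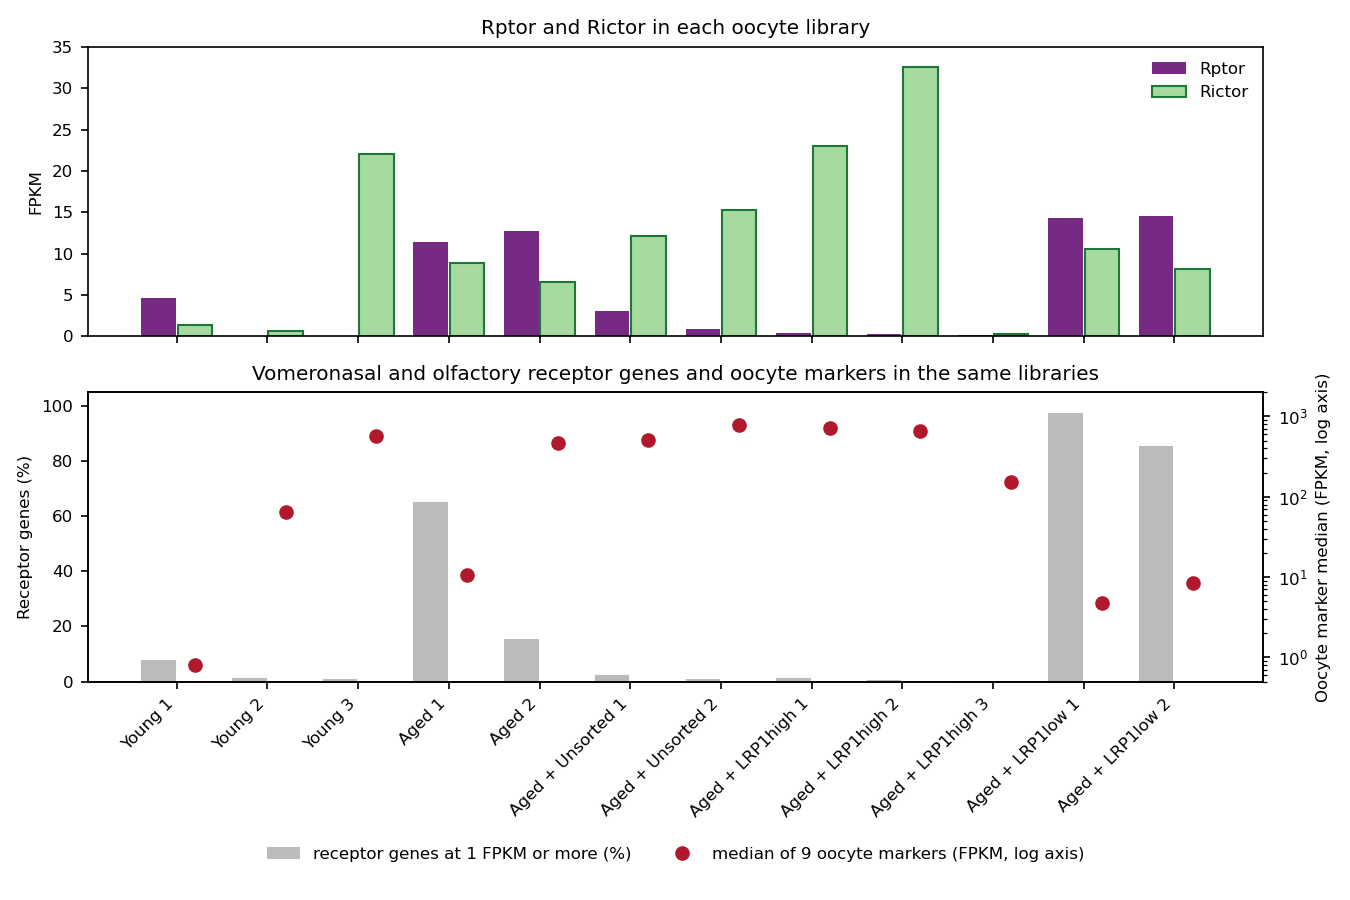
Rptor and Rictor FPKM (top) and, in the same 12 oocyte libraries, the percent of vomeronasal and olfactory receptor genes at 1 FPKM or more (bars, bottom) with the median FPKM of 9 oocyte markers (points, log axis). Rptor exceeds Rictor in Young 1, both Aged and both Aged + LRP1low libraries, of which Aged 2 is the one with a high marker median, 461 FPKM.

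Rictor, the mTORC2 counterpart of raptor, did not follow Rptor. Its Young libraries held 1.39, 0.618 and 22.1 FPKM, the Aged libraries 8.83 and 6.56, and it was at 12.1 and 15.3 in Aged + Unsorted, 23.0, 32.6 and 0.283 in Aged + LRP1high, and 10.5 and 8.11 in Aged + LRP1low oocytes. Libraries of one group differed by over an order of magnitude in Young and Aged + LRP1high. Rptor therefore made up 56.2% and 66.0% of the summed Rptor and Rictor FPKM in the Aged libraries, 57.7% and 64.2% in Aged + LRP1low, 1.92%, 0.848% and 26.1% in Aged + LRP1high and 20.0% and 5.37% in Aged + Unsorted. In Young oocytes this share was 77.0%, 0% and 0.226%, so the group spans both extremes.

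Mtor, the kinase of both complexes, was at 1.54, 0.339 and 3.94 FPKM in Young oocytes and reached 3.11 and 5.20 in the Aged ones, 0.820 and 7.05 in Aged + Unsorted, 8.35, 13.8 and 1.96 in Aged + LRP1high and 6.81 and 4.62 in Aged + LRP1low oocytes. Aged overlapped every other group, and the log2 difference was 0.98 (SE 0.91) for Aged against Young, which became -0.72 under quantile normalization, and 0.55 (SE 0.91) for Aged + LRP1high against Aged. Mlst8 was listed at 0 in 4 of 12 oocyte libraries and was at 4.66 to 6.49 FPKM in Young 1, Aged 1 and both Aged + LRP1low libraries, the 4 with low oocyte markers. In the 8 others it reached at most 2.35 FPKM.

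Of the 2 inhibitors bound to the complexes, Deptor was steadiest in Aged + LRP1high oocytes. Its levels were 15.0, 16.8 and 13.6 FPKM there, beside 4.97 and 6.99 for the Aged libraries, 2.70 and 8.50 in Aged + Unsorted, 5.60 and 1.87 in Aged + LRP1low and 0.198, 8.06 and 16.8 in Young. All 3 Aged + LRP1high libraries were above both Aged libraries, with a log2 difference of 1.22 (SE 1.02), and they overlapped Young. Akt1s1 ranged from 0 to 8.82 FPKM, and its groups overlapped in 5 of the 6 oocyte comparisons, the exception being Aged + LRP1low against Aged, where 5.69 and 6.06 FPKM stood above 5.37 and 0.

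The TSC complex genes showed separate patterns. Tsc1 was at 1.88, 0.509 and 1.02 FPKM in Young and 7.01 and 6.29 in Aged oocytes. It was at 0.0521 and 3.06 FPKM in Aged + Unsorted, 3.13, 4.36 and 0.156 in Aged + LRP1high, and 9.83 and 7.88 in Aged + LRP1low. Both Aged libraries were above those of Young, Aged + Unsorted and Aged + LRP1high, as for Rptor. Aged + LRP1high overlapped Young for both genes. The log2 difference was 1.89 (SE 0.82) for Aged against Young and -1.37 (SE 0.82) for Aged + LRP1high against Aged, and both changed sign under quantile normalization (-0.21 and 0.39).

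Tsc2, the part of the complex that acts on Rheb, was at 2.75, 2.34 and 1.24 FPKM in Young oocytes and 4.20 and 0 in the Aged ones, 13.4 and 3.98 in Aged + Unsorted, 3.44, 3.91 and 0.811 in Aged + LRP1high, and 19.8 and 20.0 in Aged + LRP1low oocytes. The Aged + LRP1low libraries stood above all others. Their log2 difference from Aged was 3.20 (SE 0.92).

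Rheb and Rps6kb1, upstream and downstream of mTORC1, overlapped between Aged or Young and every group compared with them. Rheb was at 6.64, 11.8 and 39.0 FPKM in Young oocytes and 9.15 and 73.9 in the Aged ones, 2.68 and 86.5 in Aged + Unsorted, 64.6, 12.3 and 0.643 in Aged + LRP1high, and 12.4 and 15.4 in Aged + LRP1low. Its SE was the largest of the 10 genes, 1.64 on the log2 scale for Aged against Young. Rps6kb1 was between 4.64 and 10.4 FPKM in all 9 libraries of aged mice, whether transplanted or not, and at 2.91, 0.437 and 10.8 FPKM in Young.

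Counted together, 0 of the 10 genes were called in Aged against Young oocytes, where 0.0964% of 28004 genes were called, and 0 in Aged + Unsorted against Aged and in Aged + LRP1high against Young, where 0% were. Groups did not overlap for 2 genes, Rptor and Tsc1, both higher in Aged, as for 11.0% of all genes tested. In Aged + LRP1high against Aged, 0 were called against 0.771% of all genes, 1 was higher without overlap (Deptor, background 3.85%) and 2 were lower (Rptor and Tsc1, background 12.4%). The same 2 genes were lower without overlap in Aged + Unsorted (background 11.3%), and Rictor was higher (10.3%), although its difference of 0.76 became -0.20 under median-of-ratios scaling. In Aged + LRP1low, 5 genes were higher without overlap than in Aged (Rptor, Mlst8, Akt1s1, Tsc1 and Tsc2), against 27.1% of all genes, and 0 were called against 3.17%. Aged + LRP1high and Young overlapped for all 10 genes. Unadjusted p-values, which test differences that were known when the genes were chosen and so support nothing, were under 0.05 for 2, 1, 1 and 1 of the 10 genes in these 4 comparisons and for 0 in Aged + LRP1high against Young, where 8.65%, 10.9%, 8.74%, 14.1% and 3.17% of all genes would be called. These comparisons share the Aged, Aged + LRP1high or Young libraries. The median log2 difference of the 10 genes was 0.87 in Aged against Young, near the 0.94 of all genes, and 0.17 in Aged + LRP1high against Aged, where that of all genes was -1.05. These medians turned with the scaling: the first was -0.90 under quantile normalization (all genes -0.01) and -0.03 under median-of-ratios scaling (all genes 0.32), and the second 1.48 (0.04) and -0.32 (-1.04). Over the FPKM values, these 2 scalings, TPM, and TPM rescaled without repeat-like genes, 2 of the 10 genes kept their sign in Aged against Young and 5 in Aged + LRP1high against Aged. Rptor kept its sign in every comparison, for example at 1.27 to 3.74 for Aged against Young and -4.51 to -1.60 for Aged + LRP1high against Aged.

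**Figure D3:**
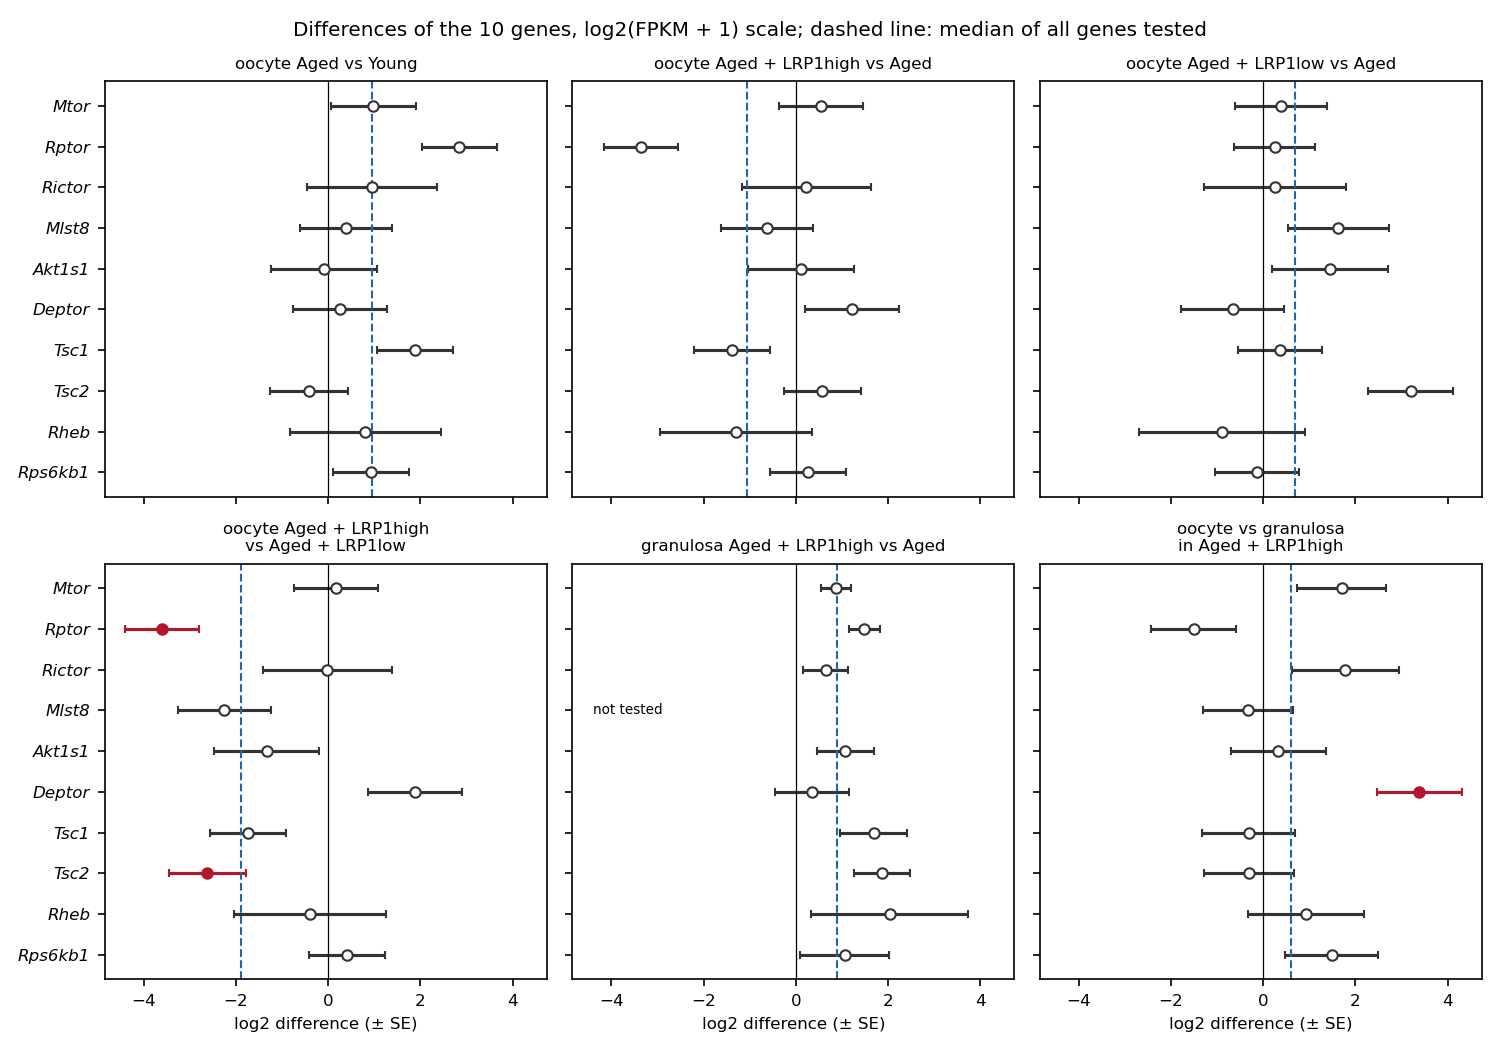
Log2 differences (± SE, log2(FPKM + 1) scale) of the 10 genes in 6 comparisons. Filled red points passed the criteria, open points did not, and the dashed line is the median of all genes tested, which lies between -1.89 and 0.94. The called genes are Rptor and Tsc2 in Aged + LRP1high against Aged + LRP1low oocytes and Deptor in oocytes against granulosa cells.

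Oocytes after transplantation of LRP1high and LRP1low cells differed most. The difference was -3.61 (SE 0.80) for Rptor and -2.62 (SE 0.84) for Tsc2, both lower after LRP1high cells in all 3 libraries and past the criteria. These 2 calls among 10 genes compare with 24.8% of all genes called lower and 26.0% called in either direction, so they are no more frequent than the background. Without adjustment 3 of the 10 had p under 0.05, against 49.1% of all genes, which is a description too. Mlst8 and Tsc1 were also lower without overlap, which 62.6% of all genes were, and Deptor and Rps6kb1 were higher without overlap, which 6.82% were, although the 0.40 of Rps6kb1 became -0.45 under median-of-ratios scaling. Relative to the median of all genes, which was -1.89, Rptor stood at -1.72, Tsc2 at -0.73 and Deptor at 3.78. Both Aged + LRP1low libraries were among the 4 with low oocyte markers. No call remained when any library of either group was left out, with a pseudocount of 0.1, or with a filter at a mean of 5 FPKM.

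The other genes of the pathway gave the same comparison more members. Of 82 tested genes out of 85, 5 were called higher and 11 lower after LRP1high than after LRP1low cells, with backgrounds of 1.21% and 24.8%. This list was chosen with earlier results of these data known, so the counts are a description and no excess is read from them. The 5 higher genes were Pdcd4 (7.21, SE 1.77), Rraga (5.77, SE 1.90), Rragc (4.41, SE 1.32), Eif4e (3.59, SE 1.00) and Eif4b (3.14, SE 0.82). Pdcd4 encodes a translation inhibitor degraded downstream of S6 kinase. Rraga and Rragc encode Rag GTPases, which carry the amino acid signal to mTORC1, and Eif4e and Eif4b encode translation initiation factors. Lowest were the AMPK subunit gene Prkag2 (-3.93, SE 1.21), the kinase gene Sgk3 (-3.50, SE 0.84) and the PI3K subunit gene Pik3r2 (-3.30, SE 0.97). Next came the insulin receptor gene Insr (-3.13, SE 0.71) and Telo2 (-2.83, SE 0.72), whose product helps assemble mTOR. Rraga was at 260, 374 and 410 FPKM after LRP1high cells and at 5.31 and 5.22 FPKM after LRP1low cells, while Prkag2 was at 0.547, 0.234 and 0.128 against 21.9 and 15.8 FPKM. Both Aged + LRP1low libraries had low oocyte markers and held 97.3% and 85.5% of the receptor genes at 1 FPKM or more. The part of this in these differences was not tested. No call remained with a pseudocount of 0.1 or with the replicate number as a block. Leaving out 1 library at a time gave 0 to 32 called genes. In each of the other 5 oocyte comparisons, 0 of the 82 genes were called.

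In granulosa cells, all of the 9 genes tested had a positive difference in Aged + LRP1high against Aged, which 6 kept under the other scalings, but 0 were called, as for 0 of 13002 genes at the adjusted threshold. Rptor was at 0.351 and 0.226 FPKM in Aged and at 3.37, 2.47 and 2.12 FPKM in Aged + LRP1high, a log2 difference of 1.49 (SE 0.34, adjusted p = 0.458, limma). Tsc2 was at 0.138 and 0.178 FPKM in Aged and 4.23, 1.03 and 6.05 in Aged + LRP1high, a difference of 1.86 (SE 0.61, adjusted p = 0.458, limma). Without adjustment 3 of the 9 genes had p under 0.05, against 8.51% of all genes. Mlst8 was below the filter of 1 FPKM and was not tested.

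Groups did not overlap for 7 of the 10 genes, all higher in Aged + LRP1high, and for 50.4% of all genes tested in that direction. The 7 include Mlst8, which was not tested and so is not part of that background. In Aged + LRP1low, 7 of 10 genes, Mlst8 not among them, were higher without overlap than in Aged (background 30.5%, 0 called, and 0 without adjustment against 3.79%). After LRP1high cells 3 genes, Mtor, Rptor and Tsc2, were higher without overlap than after LRP1low cells (background 21.7%, 0 called, and 1 without adjustment against 5.15%). The 2 Aged granulosa libraries had all 10 genes at or below 1.07 FPKM, and their 10 highest genes held 93.7% and 95.5% of all TPM. The median log2 difference of the 9 genes was 1.08 for LRP1high, beside 0.89 over all genes. Of the 68 pathway genes tested, 0 were called in each of the 3 granulosa comparisons.

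The granulosa libraries did not share one marker profile. The median of 10 granulosa and cumulus markers was 47.8 FPKM for the Young library, but only 0.0482 and 0.112 for the Aged ones. After LRP1high cells it was 1.02, 0.235 and 13.6 FPKM, and after LRP1low cells 0.271 and 0.194. Their sum ranged from 3.14 to 431 FPKM in Aged + LRP1high and from 4.83 to 59.2 in Aged + LRP1low. In the first Aged + LRP1low library 4 of the 10 markers, Fshr and Foxl2 among them, were listed at 0. Another 4 reached 1 FPKM there, with Inha at 26.0 and Inhba at 29.4 FPKM. The median of 6 luteal markers, such as the steroid enzyme gene Cyp11a1, was 25.8, 0.336 and 6.95 FPKM in Aged + LRP1high and 519 and 3.98 in Aged + LRP1low. The 10 highest genes held 83.2%, 96.4% and 74.6% of TPM in Aged + LRP1high and 69.1% and 97.1% in Aged + LRP1low. The part of these differences in the levels of the 10 genes was not tested.

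**Figure D4:**
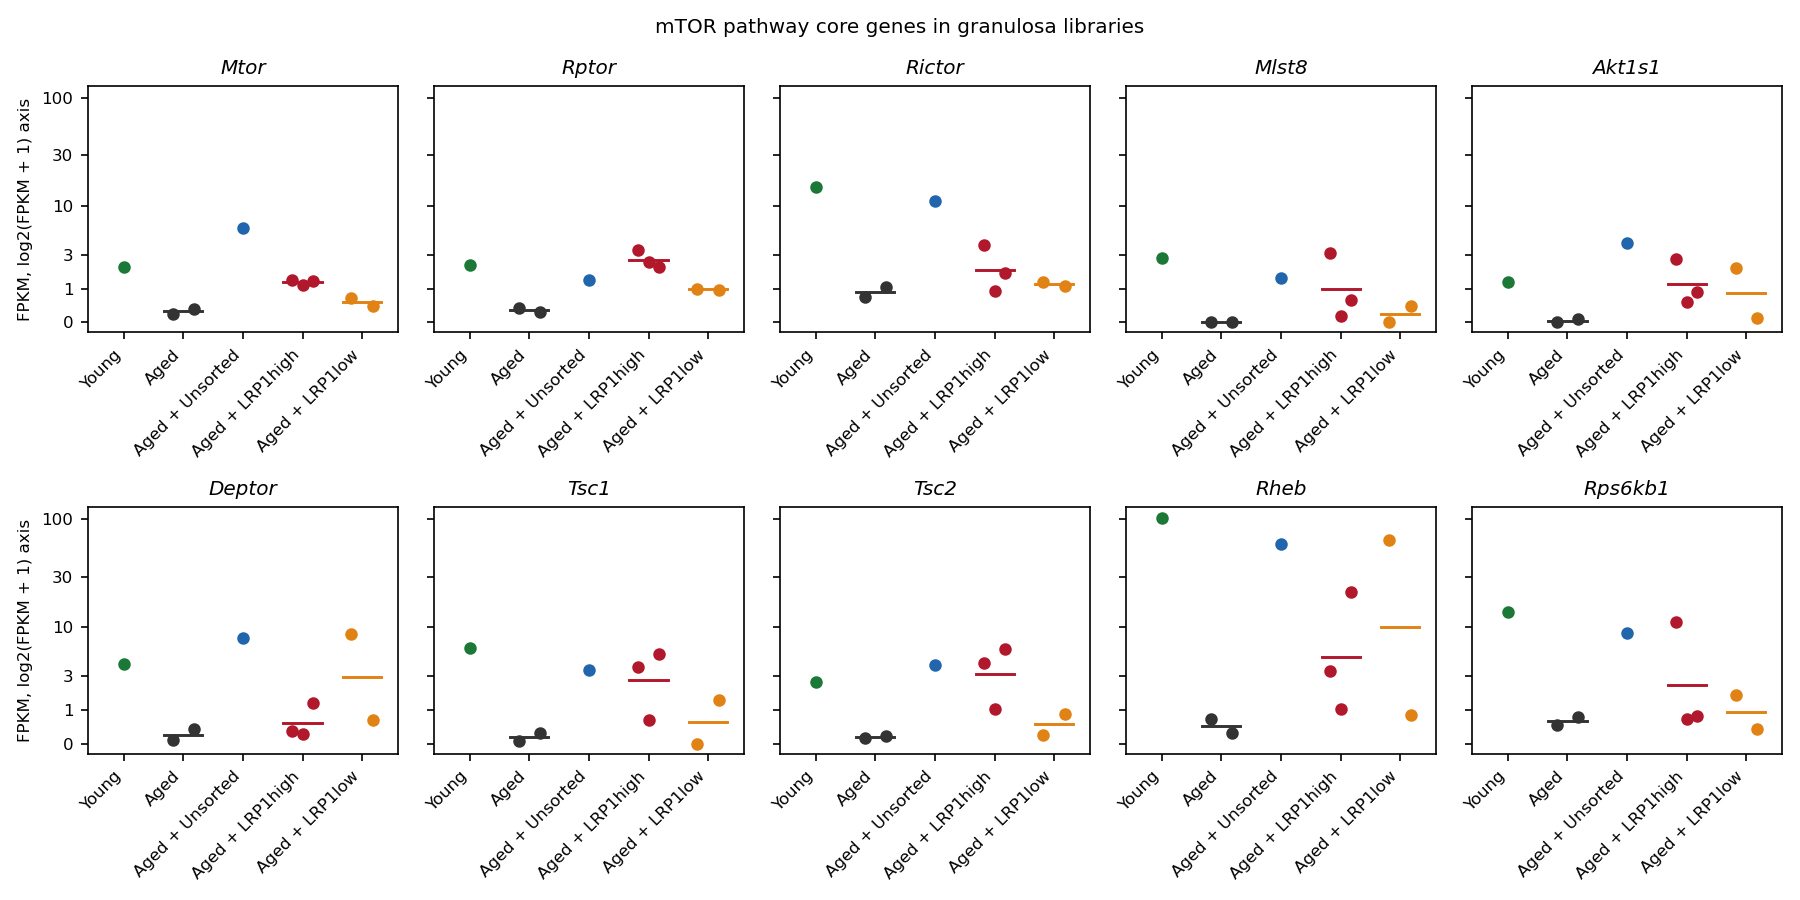
FPKM of the 10 genes in each of the 9 granulosa cell libraries by group, on a log2(FPKM + 1) axis. Points are libraries, and lines are group means on that axis for groups of more than 1 library. Both Aged libraries sit at or below 1.07 FPKM for all 10 genes.

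The direction of Rptor against Aged differed between the cell types. All 3 Aged + LRP1high oocyte libraries were lower than both Aged libraries, and all 3 granulosa libraries were higher. The difference of the 2 log2 differences was -4.85 (SE 1.04), beside a median of -1.68 over all genes, and 0 of 21767 genes were called in this contrast. Against Aged + LRP1low it was -4.49 (SE 1.04), called along with 2.66% of all genes, whose median was -2.02. The oocyte differences were known when Rptor was chosen, so this call is a description. Both Aged + LRP1low oocyte libraries had low oocyte markers, whose part in the difference was not tested.

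After LRP1high transplantation, oocytes and granulosa cells had 3 libraries each, and the granulosa libraries had the marker medians of 1.02, 0.235 and 13.6 FPKM given above, whose part in the differences was not tested. Deptor was at 15.0, 16.8 and 13.6 FPKM in oocytes and at 0.309, 0.211 and 1.29 FPKM in granulosa cells. It was higher in oocytes by 3.39 (SE 0.92) and past the criteria. The oocyte differences were known when the genes were chosen, so this call is a description. Deptor was the 1 called gene of 10, against 12.2% of all genes called higher in oocytes, 0.468% called lower and 12.7% in all. It was also the only 1 with p under 0.05 without adjustment, against 24.3%. Mtor was also higher without overlap (background 18.8%), with a difference of 1.70 (SE 0.97), and Rptor was lower without overlap (background 12.9%), with -1.51 (SE 0.91). The Deptor call was kept in 7 of 16 alternative settings. It was lost with a pseudocount of 0.1, under quantile normalization, under median-of-ratios scaling and with the trended, robust variance. Leaving out either of 2 oocyte or either of 2 granulosa libraries also lost it. Of 63 pathway genes tested, 11 were called higher in oocytes and 0 called lower, beside 12.2% and 0.468% of all genes. Without overlap, 14 were higher and 3 lower (backgrounds 18.8% and 12.9%). The pathway list was made with earlier results of these data known, so these counts too are a description. The called genes were led by Rraga (6.40, SE 1.24), Rragc (5.22, SE 0.94), Eif4b (4.24, SE 0.95), Eif4e (3.98, SE 1.17) and Fnip1 (3.85, SE 1.02). Fnip1 encodes a partner of folliculin in amino acid sensing.

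The granulosa cells of Young and Aged + Unsorted had 1 library each and no replicate check. In Young granulosa cells Rheb was at 102 FPKM, Rictor at 15.2, Rps6kb1 at 14.0, Mtor at 2.11 and Rptor at 2.25. The Aged + Unsorted granulosa library had an oocyte marker median of 580 FPKM and nearly matched the second Aged + Unsorted oocyte library. Over 3314 genes at 5 FPKM or more in that oocyte library, 98.2% were within 2-fold in the granulosa library, beside 81.2% for the next most similar oocyte library, Aged 2. All 10 genes were within 2-fold, with ratios of 0.687 to 1.61, for example 5.91 and 7.05 FPKM of Mtor and 11.1 and 15.3 FPKM of Rictor.

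**Figure D5:**
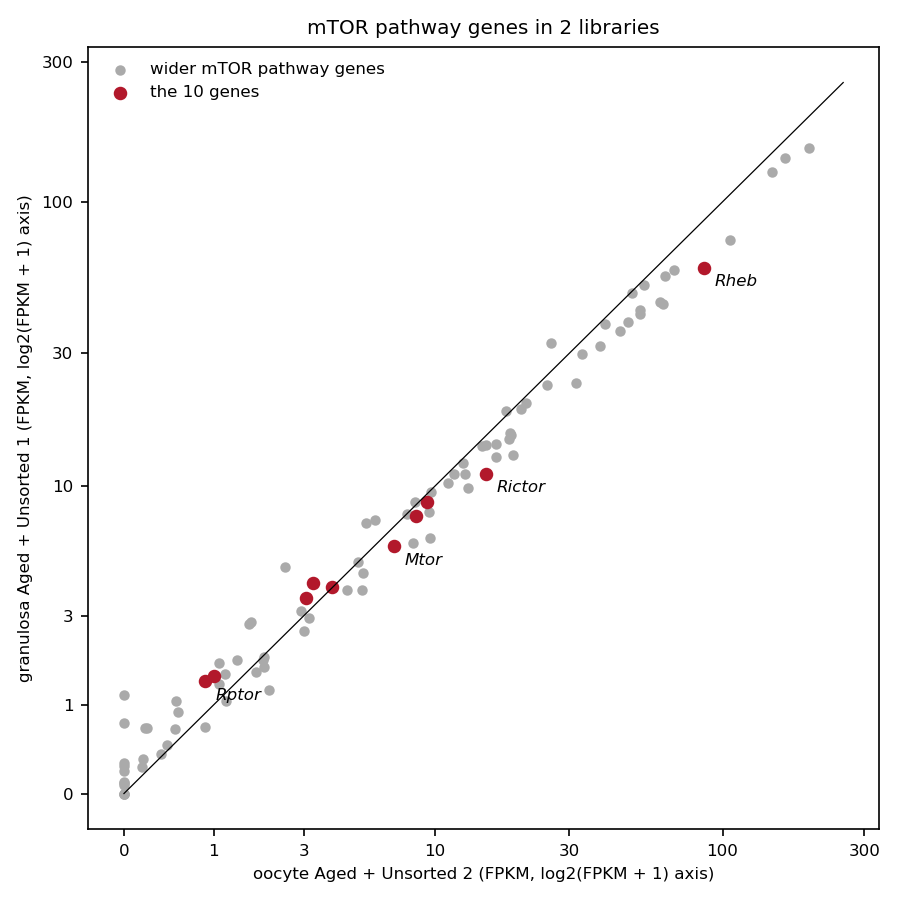
FPKM of the 10 genes (red) and of the wider mTOR pathway genes (grey) in the granulosa Aged + Unsorted library against the second oocyte Aged + Unsorted library, both on log2(FPKM + 1) axes with the line of equality. The 10 genes lie within 2-fold of that line.

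Across the 12 oocyte libraries, the genes most like Mtor in rank were Txndc16 (Spearman's rho 0.96), Slc20a1 (0.95) and Mvp (0.94), among 4066 genes with a mean of at least 10 FPKM. Those most like Rheb were Gpat3 (0.96), Nit2 (0.94) and Lamtor3 (0.93), the last of which encodes a subunit of the Ragulator complex that anchors mTORC1 at the lysosome. The 3 genes most like Rptor were all non-coding (0.87 to 0.89). These values describe libraries that differ in depth and marker content.

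Exons of 6 members (Rptor, Mlst8, Akt1s1, Deptor, Tsc2 and Rps6kb1) overlap exons of a gene on the opposite strand in the annotation, such as Pkd1 at Tsc2 and Tbc1d17 at Akt1s1. Whether strand was used in the counting is not given in the sources used here, so reads of such pairs may not be told apart. Of the words of 50 bases in the transcripts of each member, at most 1.72% (Tsc2) also occur in other genes.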

How the data were processed

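RNA of 21 libraries was analysed, grouped by their labels. Per the submitters' processing notes, the authors aligned reads with HISAT2 2.2.1 and quantified genes with StringTie 1.3.3b. The authors deposited FPKM, TPM and coverage (signal) per gene. The notes name the mm9 build, but all 10 members and 54577 identifiers have the coordinates of GENCODE M21 on GRCm38, which was used here. FPKM was summed over repeated identifiers (4 to 21 per file). Depth in gigabases was estimated from the deposited coverage and FPKM of 21693 single-exon genes. Counting intervals are not given, since the analysis used no counts.

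Tests ran on log2(FPKM + 1) in limma 3.58.1 (R 4.3.3) for genes whose FPKM averaged 1 or more. Each cell type had its own model of all its groups, the LRP1high libraries of both cell types had another, and Benjamini-Hochberg adjustment covered every gene tested. The difference between cell types was tested over all 21 libraries. Following the study, a call needed an adjusted p below 0.05 together with a fold change above 1.5. The procedure was tested on simulated data. Alternatives changed the pseudocount, filter, unit (TPM), normalization, variance model, adjustment, replicate block and libraries. The pathway list held 85 genes. Named genes were the 10 members, up to 5 called pathway genes per direction and comparison, and the 3 genes most like Mtor, Rptor and Rheb. Members and lists were chosen with earlier results of these data known. The tissue labels were checked with marker lists, of which those for oocytes, granulosa and luteal cells and housekeeping genes are given in the text.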

Additional observations from a re-analysis of the deposited data

Results flagged for a closer look

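Of the 9 members tested in both cell types, 2 were lower in oocytes and higher in granulosa cells without overlap in Aged + LRP1high against Aged, as were 7.49% of 11783 genes, and 2 in Aged + LRP1high against Aged + LRP1low, as were 9.67%. The members were chosen with the oocyte differences known, so nothing is read from these counts. Rptor was lower in oocytes (-3.36) and higher in granulosa cells (1.49) of Aged + LRP1high than of Aged, and the difference was -4.85 (SE 1.04), not called. Against Aged + LRP1low it was lower in oocytes (-3.61) and higher in granulosa cells (0.88), and this difference of -4.49 (SE 1.04) was called. Tsc1 in Aged + LRP1high against Aged was lower in oocytes (-1.37, but 0.39 under quantile normalization) and higher in granulosa cells (1.69), with a difference of -3.06 (SE 1.19) that was not called. Tsc2 in Aged + LRP1high against Aged + LRP1low was lower in oocytes (-2.62) and higher in granulosa cells, with a difference of -4.12 (SE 1.15) that was not called. The 2 Aged + LRP1low oocyte libraries had oocyte marker medians of 4.76 and 8.32 FPKM, and the 2 Aged granulosa libraries housekeeping medians of 0.0293 and 0.193 FPKM. Their part in these differences was not tested. Groups of 4 or more libraries, needed to look for a single outlying library, did not occur.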

How the results depend on the processing

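Of 2038 values for single members under the alternatives, 1846 kept their direction and call or moved by less than the spread, 162 moved, 30 lost their call and none changed direction as a called value. Counts of called members and of called pathway genes that changed by more than 1.5 times were as follows. In oocytes these counts, unadjusted p-values included, are descriptions. For most alternatives the share of all genes called is not given here, so their counts cannot be set against a background. In the main fit that share was 26.0% for LRP1high against LRP1low oocytes and 12.7% for oocytes against granulosa cells. A pseudocount of 0.1 gave 0 and 0 for LRP1high against LRP1low oocytes, and 0 and 3 for oocytes against granulosa cells. No filter gave 2 pathway genes for LRP1high against Aged oocytes, 1 for Unsorted, 1 member and 3 pathway genes for LRP1low against Aged, 26 pathway genes for LRP1high against LRP1low, and 2 members and 4 pathway genes for oocytes against granulosa cells. A filter at 5 FPKM gave 0 and 1 for LRP1high against LRP1low, and 7 pathway genes between cell types. TPM gave 1 member for Aged against Young, 1 and 2 for LRP1high against Aged, 1 and 2 for LRP1low against Aged and 1 and 26 for LRP1high against LRP1low. Quantile normalization gave 1 and 3 for LRP1low against Aged, 6 pathway genes for LRP1high against LRP1low, and 0 and 3 between cell types, where median-of-ratios scaling gave 0 and 2 and the trended, robust variance 0 and 5. Smaller changes included 3 and 23 for LRP1high against LRP1low under median-of-ratios scaling. The trended, robust variance left 1 member there, beside 19 pathway genes, and a fit of those 2 groups alone gave 4 and 35. Unadjusted p-values gave, in the order of the oocyte comparisons, 2 and 8 (Aged against Young), 1 and 10 (LRP1high), 1 and 6 (Unsorted), 1 and 6 (LRP1low against Aged), 5 pathway genes (LRP1high against Young) and 30 (LRP1high against LRP1low), in granulosa cells 3 and 7, 1 pathway gene, and 1 and 1, and 20 pathway genes between cell types. Added after the data were seen, TPM rescaled without 11 repeat-like genes gave 2 pathway genes for LRP1low against Aged, 27 for LRP1high against LRP1low and 5 between cell types, and the 8 marker-rich oocyte libraries gave 1 and 1 for Aged against Young, 1 and 1 for LRP1high against Aged, and 1 pathway gene for Unsorted. LRP1low comparisons could not be run there. Where a lone library remained, it was assumed to vary like the other groups. The causes were not tested. With the replicate number as a block, 0 members and 0 pathway genes were called for LRP1high against LRP1low oocytes, and other counts did not change. Within a cell type no steady pairing by number was seen: same-numbered oocyte libraries deviated with correlations of -0.44 to 0.44 (4 of 21 over 0.1). Same-numbered granulosa libraries deviated with -0.08 to 0.26 (1 of 6). In groups of 2 libraries the deviations are mirror images, so this check is weak. Pairing between cell types was not checked. Leaving out 1 library at a time gave 0 to 1 members and 0 to 9 pathway genes for Aged against Young, 0 to 1 and 0 to 13 for LRP1high against Aged, 0 and 0 to 11 for Unsorted, 0 to 1 and 0 to 5 for LRP1low against Aged, 0 and 0 for LRP1high against Young, 0 to 3 and 0 to 32 for LRP1high against LRP1low, 0 to 2 and 3 to 17 between cell types, and in granulosa cells 0 members and 0, 0 to 3 and 0 to 1 pathway genes. Depth limits low genes: where a member is listed at 0 or below the level of 1 read, a difference was not detectable.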

Other observations

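The median FPKM of protein-coding genes was higher for 2198 genes with 10 or more annotated transcripts than for 4270 genes with 1 transcript in 11 of 12 oocyte and 9 of 9 granulosa libraries, and both medians were 0 in Young 2. It rose from 3.47 to 9.32 and from 2.40 to 7.27 in the 2 Aged + LRP1low oocyte libraries, from 1.57 to 8.41 in Aged 1 and from 0 to 4.06 in the first Aged + LRP1high library. In the same 2 Aged + LRP1low libraries Tsc2, with 22 transcripts, was at 19.8 and 20.0 FPKM, Rptor with 12 was at 14.3 and 14.6, Akt1s1 with 12 at 5.69 and 6.06, Tsc1 with 11 at 9.83 and 7.88 and Mlst8 with 10 at 6.49 and 6.47. Rps6kb1 with 7 was at 6.89 and 5.22 FPKM and Rictor with 5 at 10.5 and 8.11. Of those with 4, Rheb was at 12.4 and 15.4, Mtor at 6.81 and 4.62 and Deptor at 5.60 and 1.87.

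The spread between the 10 genes was narrow in 3 of the 4 libraries with low oocyte markers. The highest of the 10 genes was 3.65-fold above the lowest in Aged 1, and 3.54-fold and 10.7-fold in the 2 Aged + LRP1low libraries, whereas it was 144-fold in the first and 215-fold in the second Aged + LRP1high library, 99.8-fold in the second Aged + Unsorted library and 781-fold in Young 3. Young 1, which also had low markers, lay between, at 33.8-fold. The other 4 oocyte libraries list at least 1 of the genes at 0 and have no such ratio.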
